A study of Mus musculus with 9 samples.

Results

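Transcript levels of 10 fibroblast marker genes were examined in hearts of male mice on the FVB/N background at 8 months of age. Pdgfra, Tcf21, Dpt, Gsn and Pi16 are here called the resting markers, and Fap, Cthrc1, Meox1, Runx1 and Cilp the activated markers. They were found by gene name in the deposited tables, where each of the 10 was present among 41710 gene names. The study compared 3 hearts of mice transgenic for RKIP (Tg-RKIP) with 3 hearts labelled Tg-GRK2 and 3 hearts of non-transgenic FVB/N mice (FVB). The Tg-RKIP line carries RKIP, the Raf kinase inhibitor protein encoded by Pebp1, under the alpha-MHC promoter, which drives expression in cardiomyocytes, and these mice were described as having symptoms of heart failure. The promoter of the GRK2 transgene is not given in the sources used here, and the labels do not say how many founder lines either transgenic group represents.

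Fibroblasts are the main matrix-producing cells of the heart. In the resting state they express Pdgfra, a receptor for platelet-derived growth factors, and Tcf21, a transcription factor needed to form the cardiac fibroblast lineage. After injury or strain, and under the influence of transforming growth factor beta, fibroblasts are known to become activated, to secrete matrix proteins and to express genes such as Postn, Cthrc1 and Fap. Meox1 and Runx1 encode transcription factors that have been linked to this activated state. Whole hearts were sequenced, so a higher level of a marker may come from more fibroblasts or from more of the transcript per cell, and these cannot be told apart in bulk RNA.

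The libraries held 25458108 to 33447654 reads on transcripts. Reads of Pebp1 numbered 252196 to 321666 in Tg-RKIP and 7140 to 8446 in FVB. Grk2 was not called higher in the libraries labelled Tg-GRK2 than in FVB (log2 fold change 0.05 ± 0.0384, SE, edgeR adjusted p = 0.354), and these libraries are therefore named by their label. Mitochondrial transcripts took 11.5% to 11.8% of the reads in Tg-RKIP and 22.4% to 23.2% in the other 6 libraries. Levels are given as TPM, a unit that corrects reads for the length of the transcript and gives each library an equal total. Fold changes are those of reads normalized by the TMM method, which sets the bulk of genes to no change. Over the 15504 tested genes, log2 fold changes between Tg-RKIP and FVB had a median of 0.01 with TMM and of 0.38 with scaling to library size alone, so TPM folds between these groups run higher than TMM folds. The biological coefficient of variation that edgeR estimated over all 9 libraries was 2.86%, and although the labels give 3 mice per group, p-values here measure the spread between these libraries, which may be partly technical. A gene was called changed at an adjusted p under 0.05, with Benjamini-Hochberg adjustment over all tested genes.

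The bases in front of the annotated starts are shown for Runx1, which has a pair of promoters, for Cilp, Pi16 and Tcf21, which were more than 1 higher on the log2 scale in Tg-RKIP, and for Pdgfra, the receptor that moved little. They are RefSeq windows of build GRCm38.p6, written 5′ to 3′ on the strand of the gene and ended at the first annotated transcript start. Capitals mark matches to the motifs described after the sequences.
Runx1 distal start, chr16:92826150-92826324, minus strand: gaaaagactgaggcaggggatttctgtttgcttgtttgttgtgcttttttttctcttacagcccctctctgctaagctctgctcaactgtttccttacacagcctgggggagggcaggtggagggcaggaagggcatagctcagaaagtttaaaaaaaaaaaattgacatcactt
Runx1 proximal start, chr16:92697330-92697579, minus strand: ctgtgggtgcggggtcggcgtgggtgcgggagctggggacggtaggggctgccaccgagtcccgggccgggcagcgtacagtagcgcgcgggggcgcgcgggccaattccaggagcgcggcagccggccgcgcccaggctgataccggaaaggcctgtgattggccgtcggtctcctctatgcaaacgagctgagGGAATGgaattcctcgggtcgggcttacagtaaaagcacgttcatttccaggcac
Cilp, chr9:65264930-65265179, plus strand: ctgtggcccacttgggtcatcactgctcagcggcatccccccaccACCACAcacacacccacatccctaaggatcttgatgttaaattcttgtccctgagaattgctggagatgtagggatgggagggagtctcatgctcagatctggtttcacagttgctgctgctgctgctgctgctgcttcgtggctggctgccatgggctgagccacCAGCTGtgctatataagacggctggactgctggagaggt
Tcf21, chr10:22820175-22820393, minus strand: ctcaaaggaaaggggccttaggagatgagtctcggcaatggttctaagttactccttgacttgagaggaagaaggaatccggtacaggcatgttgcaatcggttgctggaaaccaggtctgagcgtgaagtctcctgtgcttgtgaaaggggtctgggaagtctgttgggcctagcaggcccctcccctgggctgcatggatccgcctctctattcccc
Pi16, chr17:29318632-29318823, plus strand: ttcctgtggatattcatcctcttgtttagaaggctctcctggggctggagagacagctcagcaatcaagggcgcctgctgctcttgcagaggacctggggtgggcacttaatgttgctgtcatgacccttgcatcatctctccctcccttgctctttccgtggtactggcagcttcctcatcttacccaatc
Pdgfra, chr5:75152001-75152250, plus strand: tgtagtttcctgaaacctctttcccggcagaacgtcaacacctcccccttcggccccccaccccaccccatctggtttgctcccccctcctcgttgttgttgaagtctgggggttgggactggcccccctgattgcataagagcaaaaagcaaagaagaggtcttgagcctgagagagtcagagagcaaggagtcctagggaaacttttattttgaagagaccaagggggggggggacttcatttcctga

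Of the 10 members, 7 had an entry among the 32851 RefSeq promoter windows, with 10 windows in all, and Fap, Cthrc1 and Meox1 had none. Both strands of the 250 bases before each start were searched for 6 short motifs. The RUNX motif TGTGGT occurred in 4 of the 10 windows, those of Cilp, Dpt and Gsn, against 14.0% of all windows. The E-box CAGCTG, the kind of site bound by basic helix-loop-helix factors such as Tcf21, occurred in 4 windows, also of Cilp, Dpt and Gsn, against 13.0% of all windows. The TEAD motif GGAATG occurred in 1 window, the proximal one of Runx1, against 12.6%. The AP-1 motif TGANTCA, the SMAD motif CAGACA and the TATA box TATAAA occurred in 0 of the 10 windows, against 6.75%, 17.1% and 12.4% of all windows. Gsn and Runx1 have more than 1 window each, so the windows are not separate genes, and the shares were not tested against each other. These matches describe letters in short windows and say nothing of binding.

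In Tg-RKIP hearts 9 of the 10 markers were called higher than in FVB and 0 were called lower. Among all tested genes 36.8% were called higher and 37.1% lower, so that a call in this comparison is common. With scaling to library size alone, 9710 genes were called higher and 2649 lower, in place of 5709 and 5751. The size of the change set the markers apart from each other, with 6 of the 10 higher by at least 1 on the log2 scale, against 10.2% of all tested genes. Cthrc1, Cilp, Pi16, Runx1, Tcf21 and Meox1 were these 6, and Gsn, Pdgfra and Dpt were called higher by less. The median log2 fold change was 0.54 for the 5 resting markers and 1.43 for the 5 activated markers, beside 0.01 for all tested genes. The resting median was 0.91 with scaling to library size alone and 0.23 with the most abundant transcript of each gene, and the activated median was 1.80 and 1.83. Fap, an activated marker, was the single member that was not called. The TPM values of Tg-RKIP and FVB did not overlap for any of the 10 members, as for 78.8% of all tested genes, and an exact two-sided permutation test of each member's TPM gave p = 0.1, the smallest value that 3 libraries against 3 allow.

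**Figure D1:**
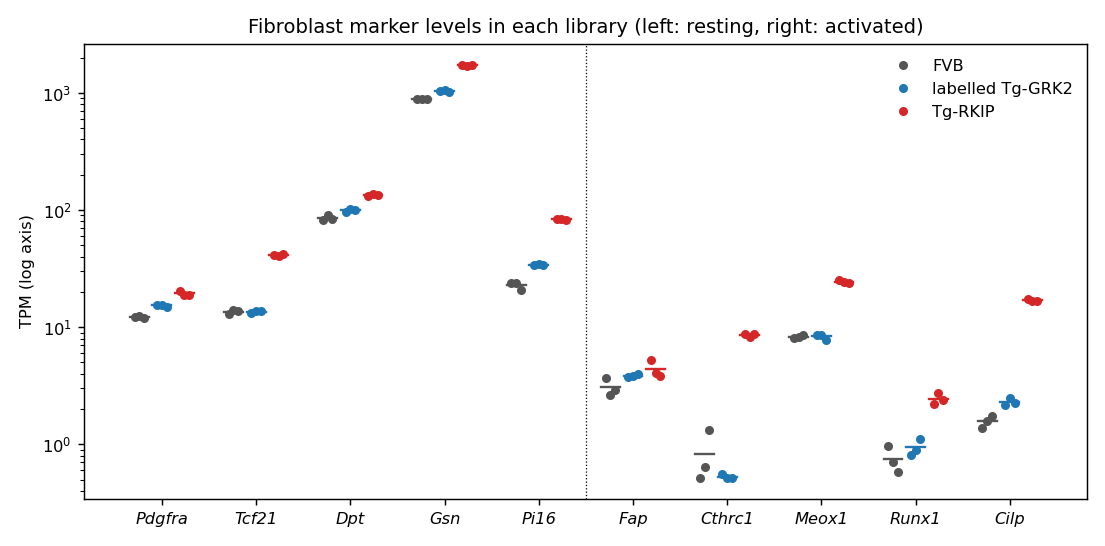
TPM of the 10 markers in each library on a log axis, with 3 points per group and a line at the group mean, resting markers left of the dotted line and activated markers right of it. Tg-RKIP points lie above the FVB points for every member, by the widest margin for Cilp and Cthrc1 and by the narrowest for Fap.

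Pdgfra encodes the alpha receptor for platelet-derived growth factors and is the usual marker of cardiac fibroblasts. Its TPM was 12.2, 12.5 and 12.1 in FVB, 15.6, 15.5 and 14.9 in the labelled Tg-GRK2 libraries, and 20.5, 18.9 and 18.9 in Tg-RKIP. In TPM the groups did not overlap, and the order was FVB, then the labelled Tg-GRK2 libraries, then Tg-RKIP. On TMM-normalized reads the transgenic groups overlapped, with a log2 fold change of -0.02 between Tg-RKIP and the labelled Tg-GRK2 libraries. On normalized reads Pdgfra was 0.26 ± 0.0311 (SE) higher on the log2 scale in Tg-RKIP than in FVB (edgeR adjusted p = 1.45e-07), and 33.5% of tested genes had a log2 fold change at least as high.

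Dpt encodes dermatopontin, a small protein of the extracellular matrix. Its TPM was 82.8, 90.2 and 83.8 in FVB, 97.1, 103 and 101 in the labelled Tg-GRK2 libraries, and 131, 136 and 133 in Tg-RKIP. In TPM the 3 groups again lay in separate ranges, in the same order as for Pdgfra, and on TMM-normalized reads the transgenic groups again overlapped. The log2 fold change between Tg-RKIP and FVB was 0.22 ± 0.0306 (SE) with an adjusted p of 1.19e-06 in edgeR. Within a library the ratio of Dpt to Pdgfra stayed nearly constant, with a log2 TPM difference of 2.76 to 2.86 in FVB, 2.64 to 2.76 in the labelled Tg-GRK2 libraries and 2.68 to 2.85 in Tg-RKIP.

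Gsn encodes gelsolin, which severs and caps actin filaments and also exists as a secreted form. It was the most abundant of the 10 members in every group, at 889, 893 and 885 TPM in FVB, 1028, 1062 and 1016 TPM in the labelled Tg-GRK2 libraries, and 1740.1, 1709 and 1739 TPM in Tg-RKIP. All 3 groups were separate, and replicates lay close together. Gsn was 0.54 ± 0.0152 (SE) higher on the log2 scale in Tg-RKIP than in FVB (edgeR adjusted p = 2.26e-18), when reads were summed over its transcripts. With the most abundant transcript alone the log2 fold change was 0.12 with an edgeR adjusted p of 0.378, and the call between the labelled Tg-GRK2 libraries and FVB was also lost (0.19, edgeR adjusted p = 0.346). The division of Gsn reads between a pair of long transcripts varied among replicates, and the share on Gsn_2 ran from 18.9% to 38.4% within FVB.

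Tcf21 encodes a basic helix-loop-helix transcription factor of the cardiac fibroblast lineage. Its TPM was 12.9, 14.0 and 13.8 in FVB, 13.2, 13.8 and 13.7 in the labelled Tg-GRK2 libraries, and 41.0, 40.4 and 42.2 in Tg-RKIP. FVB and labelled Tg-GRK2 values overlapped, and the Tg-RKIP values stood 3.04-fold above the FVB mean. The log2 fold change of normalized reads was 1.18 ± 0.0505 (SE) with an edgeR adjusted p of 3.84e-15, in the upper 7.97% of tested genes.

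Pi16 encodes peptidase inhibitor 16, a secreted or membrane-anchored protein that marks fibroblasts of the adventitia in many tissues. Its TPM was 23.8, 24.01 and 20.8 in FVB, 33.6, 34.3 and 33.8 in the labelled Tg-GRK2 libraries, and 84.6, 83.3 and 82.8 in Tg-RKIP. The groups did not overlap, and the Tg-RKIP mean was 3.65-fold that of FVB. Pi16 had the largest log2 fold change of the 5 resting markers between Tg-RKIP and FVB, 1.46 ± 0.0334 (SE), with an edgeR adjusted p of 5.43e-20. A Pi16 transcript annotated as having a retained intron took 49.1% ± 1.67 of the gene's reads in FVB and 48.1% ± 1.60 in Tg-RKIP (SD, n = 3 each), and these shares overlapped.

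Among the activated markers, Cthrc1 encodes a secreted collagen triple helix repeat protein. It was barely present outside Tg-RKIP, with 11, 13 and 18 reads in FVB, 11, 9 and 11 reads in the labelled Tg-GRK2 libraries, and 159, 197 and 168 reads in Tg-RKIP. In TPM this was 0.520, 0.638 and 1.32, then 0.561, 0.514 and 0.517, then 8.72, 8.17 and 8.70. Cthrc1 had the largest log2 fold change of the 10 members between Tg-RKIP and FVB, 3.26 ± 0.187 (SE), with a 95% interval of 2.87 to 3.65 and an edgeR adjusted p of 7.46e-13. The interval of Cilp, 2.88 to 3.15, lies within that of Cthrc1, so the order of these genes is not settled. Only 0.826% of tested genes had a log2 fold change at least as high.

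Cilp encodes cartilage intermediate layer protein, a matrix protein that fibroblasts of the heart also make. It had 104, 135 and 131 reads in FVB, 170, 189 and 199 reads in the labelled Tg-GRK2 libraries, and 1203, 1503 and 1160 reads in Tg-RKIP. The corresponding TPM values were 1.38, 1.57 and 1.76, then 2.16, 2.50 and 2.24, then 17.3, 16.7 and 16.9, with no overlap between any of the 3 groups. The Tg-RKIP mean was 10.8-fold that of FVB, and on normalized reads the log2 fold change was 3.01 ± 0.0655 (SE) with an edgeR adjusted p of 1.97e-20. In FVB, Cilp stood 8th in TPM among the 10 members, and in Tg-RKIP it stood 7th, above Fap.

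Meox1 encodes a homeobox transcription factor. Its TPM was 8.03, 8.21 and 8.58 in FVB, 8.65, 8.64 and 7.75 in the labelled Tg-GRK2 libraries, and 25.2, 24.5 and 23.6 in Tg-RKIP. The FVB and labelled Tg-GRK2 ranges overlapped, and Tg-RKIP lay 2.95-fold above the FVB mean. The log2 fold change of normalized reads was 1.14 ± 0.0517 (SE), with an edgeR adjusted p of 1.00e-14, close to that of Tcf21. Meox1 was below Pdgfra in TPM in FVB and above it in Tg-RKIP.

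Runx1 encodes a Runt-domain transcription factor that binds DNA with Cbfb. It had 83, 81 and 56 reads in FVB, 74, 83 and 110 reads in the labelled Tg-GRK2 libraries, and 215, 327 and 226 reads in Tg-RKIP. In TPM these were 0.965, 0.707 and 0.585, then 0.803, 0.902 and 1.12, then 2.22, 2.76 and 2.39. The Tg-RKIP libraries were above all others, while FVB and labelled Tg-GRK2 values overlapped. The log2 fold change was 1.43 ± 0.127 (SE) between Tg-RKIP and FVB, with an edgeR adjusted p of 1.44e-09.

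Fap encodes fibroblast activation protein, a membrane-bound serine protease of the dipeptidyl peptidase family, and it did not follow the other activated markers. Its reads numbered 163, 135 and 142 in FVB, 181, 180 and 194 in the labelled Tg-GRK2 libraries, and 165, 176 and 148 in Tg-RKIP, with overlap between Tg-RKIP and FVB. The log2 fold change of normalized reads between Tg-RKIP and FVB was -0.22 ± 0.112 (SE), with a 95% interval of -0.45 to 0.02 and an edgeR adjusted p of 0.0861. The direction depended on the scale, since library-size scaling gave 0.16 with an adjusted p of 0.201 and limma on log2(TPM + 0.1) gave 0.50 with an adjusted p of 0.00846. In TPM the values were 3.69, 2.64 and 2.93 in FVB, 3.74, 3.799 and 3.95 in the labelled Tg-GRK2 libraries, and 5.30, 4.08 and 3.82 in Tg-RKIP. TPM divides reads by transcript length. Fap_1, a processed transcript of 1269 bases, took 6.85% ± 6.09 of the Fap reads in FVB and 21.6% ± 9.34 in Tg-RKIP (SD, n = 3 each), and its part in the TPM difference was not tested. Without Tg-RKIP replicate 1 Fap was called lower at a log2 fold change of -0.28 (edgeR adjusted p = 0.046), and without FVB replicate 2 it was called lower at -0.34 (edgeR adjusted p = 0.0107).

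**Figure D2:**
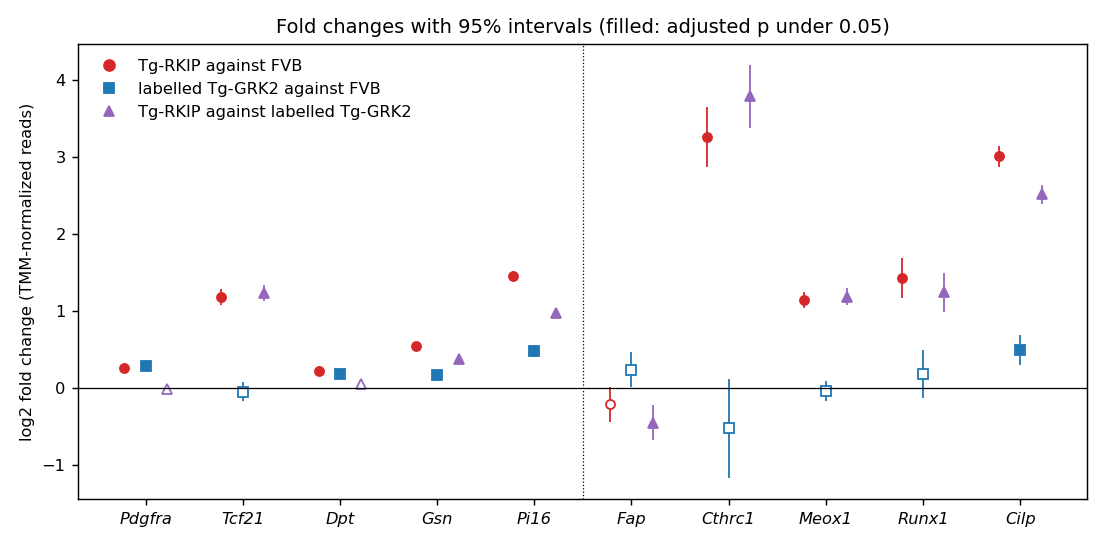
Log2 fold changes of TMM-normalized reads for the 10 markers in the 3 comparisons, with 95% intervals and filled symbols for an adjusted p under 0.05. Cthrc1 and Cilp stand near or above 3 between Tg-RKIP and FVB, while no member reaches 1 between the labelled Tg-GRK2 libraries and FVB.

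The libraries labelled Tg-GRK2 differed less from FVB. In this comparison 5 members were called higher and 0 lower, where 12.2% of all tested genes were called higher and 12.2% lower. The 5 were Cilp (log2 fold change 0.50 ± 0.0934, SE, edgeR adjusted p = 0.000379), Pi16 (0.48 ± 0.0370, adjusted p = 2.66e-09), Pdgfra (0.28 ± 0.0317, adjusted p = 7.73e-07), Dpt (0.17 ± 0.0312, adjusted p = 0.000224) and Gsn (0.17 ± 0.0152, adjusted p = 2.44e-08). Thus 4 of the 5 resting markers and 1 of the 5 activated markers were called. None of the 5 was called at a fold change of at least 1.5 by glmTreat. The members that were not called were Fap at 0.24 with a 95% interval of 0.01 to 0.47, Runx1 at 0.18 with an interval of -0.13 to 0.50, Meox1 at -0.04 with -0.17 to 0.09, Tcf21 at -0.05 with -0.18 to 0.08, and Cthrc1 at -0.53 with -1.18 to 0.12. Without FVB replicate 1 Fap was also called higher, at 0.35 (edgeR adjusted p = 0.0396). TPM values of the groups did not overlap for 6 of the 10 members, against 33.8% of all tested genes. The comparisons of both transgenic groups with FVB share the same 3 FVB libraries.

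The transgenic groups were also compared with each other. Tg-RKIP was called higher than the labelled Tg-GRK2 libraries for 7 members and lower for 1, where 37.9% of all tested genes were called higher and 36.6% lower. Higher by at least 1 on the log2 scale were 5 members, against 9.89% of all tested genes. These were Cthrc1 (3.79 ± 0.198, SE), Cilp (2.52 ± 0.0598), Runx1 (1.24 ± 0.122), Tcf21 (1.23 ± 0.0501) and Meox1 (1.19 ± 0.0512), and 4 of the 5 are activated markers. Pi16 and Gsn were also called higher, by 0.98 and 0.37. Pdgfra differed by -0.02 with a 95% interval of -0.08 to 0.04, and Dpt by 0.05 with an interval of -0.01 to 0.11, and neither was called. Scaled to library size alone, Pdgfra was 0.34 and Dpt 0.41 higher in Tg-RKIP and both were called, which is close to the median log2 fold change of 0.38 that all genes had on that scale. Fap was lower in Tg-RKIP by -0.45 on the log2 scale (95% interval -0.68 to -0.23, edgeR adjusted p = 0.00069), although on log2(TPM + 0.1) limma gave 0.18 with an adjusted p of 0.262. TPM values did not overlap for 9 of the 10 members, the exception being Fap, against 78.5% of all tested genes.

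Ratios within a library do not depend on how libraries are scaled. The mean log2 TPM of the 5 activated markers lay below that of the 5 resting markers by -4.88 to -4.57 in FVB, by -4.88 to -4.82 in the labelled Tg-GRK2 libraries and by -3.78 to -3.69 in Tg-RKIP. The Tg-RKIP libraries were therefore set apart from the other 6 by a smaller distance between the classes, and FVB and the labelled Tg-GRK2 libraries overlapped. This distance is a mean over unlike genes. Among the activated markers Cthrc1 and Cilp moved most relative to Pdgfra, and the distance without them was not tested. Runx1 moved less, from -4.37 to -3.67 in FVB to -3.21 to -2.77 in Tg-RKIP. Relative to Pdgfra of the same library, Cilp was at -3.15 to -2.78 on the log2 scale in FVB, -2.85 to -2.63 in the labelled Tg-GRK2 libraries and -0.24 to -0.17 in Tg-RKIP. Cthrc1 was at -4.56 to -3.19, -4.91 to -4.80 and -1.23 to -1.12, and Meox1 at -0.61 to -0.49, -0.94 to -0.84 and 0.30 to 0.38, in the same order of groups. The resting markers did not move as one, since Tcf21 relative to Pdgfra was 0.07 to 0.19 in FVB and 1.00 to 1.16 in Tg-RKIP, and Pi16 was 0.78 to 0.96 in FVB and 2.04 to 2.14 in Tg-RKIP. In TPM, Fap relative to Pdgfra overlapped in all 3 groups, at -2.24 to -1.73 in FVB, -2.06 to -1.91 in the labelled Tg-GRK2 libraries and -2.31 to -1.95 in Tg-RKIP. In reads, which are not divided by transcript length, this ratio was lower in Tg-RKIP, without overlap with the other groups. Fap reads per 100 Pdgfra reads were 6.63 to 7.62 in Tg-RKIP, 8.36 to 11.7 in FVB and 9.58 to 9.97 in the labelled Tg-GRK2 libraries.

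**Figure D3:**
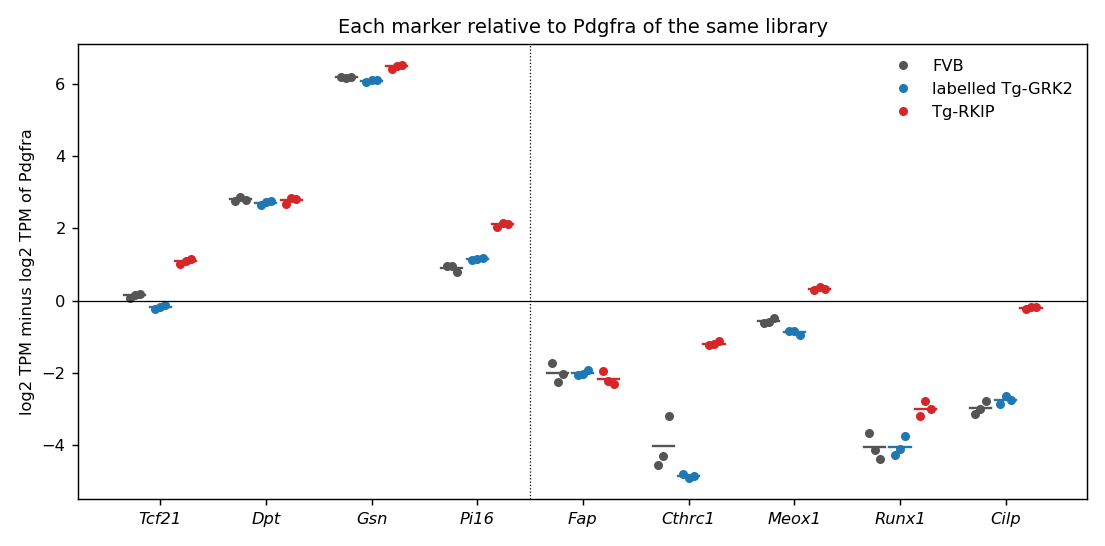
Log2 TPM of 9 markers minus log2 TPM of Pdgfra in the same library, with points for libraries and lines for group means. Tcf21, Gsn, Pi16, Cthrc1, Meox1, Runx1 and Cilp are higher in the 3 Tg-RKIP libraries than in the other 6, whereas Dpt and Fap overlap between the groups.

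In FVB the order of levels in TPM was Gsn, Dpt, Pi16, Tcf21, Pdgfra, Meox1, Fap, Cilp, Cthrc1 and Runx1, and of these neighbours only Cthrc1 and Runx1 overlapped between libraries. In the labelled Tg-GRK2 libraries Pdgfra stood above Tcf21 and Runx1 above Cthrc1, with no overlap between neighbours. In Tg-RKIP the first 4 places were the same as in FVB, and Meox1, Pdgfra, Cilp, Cthrc1, Fap and Runx1 followed, again with no overlap between neighbours. Cilp and Cthrc1 both stood below Fap in FVB and above it in Tg-RKIP.

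Runx1 lies on the minus strand at chr16:92398354-92623037 (build GRCm39 per the submitters' processing notes), and the transcripts that held most of its reads begin at a distal and a proximal start 129 kb apart. The transcript from the distal start, Runx1_3, had 48, 61 and 37 reads in FVB, 39, 63 and 74 reads in the labelled Tg-GRK2 libraries, and 202, 287 and 201 reads in Tg-RKIP. The transcript from the proximal start, Runx1_4, had 28, 20 and 18 reads in FVB, 31, 15 and 23 reads in the labelled Tg-GRK2 libraries, and 13, 38 and 25 reads in Tg-RKIP. Only the distal transcript separated Tg-RKIP from the other libraries, and the reads of the proximal one overlapped between all groups. The distal share of Runx1 reads was 66.4% ± 8.74 (SD, n = 3) in FVB, 65.3% ± 11.7 (SD, n = 3) in the labelled Tg-GRK2 libraries and 90.2% ± 3.29 (SD, n = 3) in Tg-RKIP, with no overlap between Tg-RKIP and either other group (exact two-sided permutation test, p = 0.1, the smallest possible). Tested on single transcripts in edgeR, Runx1_3 was 1.91 ± 0.254 (SE) higher on the log2 scale in Tg-RKIP than in FVB (adjusted p = 0.000686), and Runx1_4 differed by -0.17 ± 0.458 (SE) with a 95% interval of -1.24 to 0.89 (adjusted p = 0.824). Of 34991 single transcripts tested, 34.0% were called in this comparison. Reads of 50 bases from the shared exons cannot be placed on one of these transcripts by sequence alone, and how they were divided is not given in the sources used here.

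**Figure D4:**
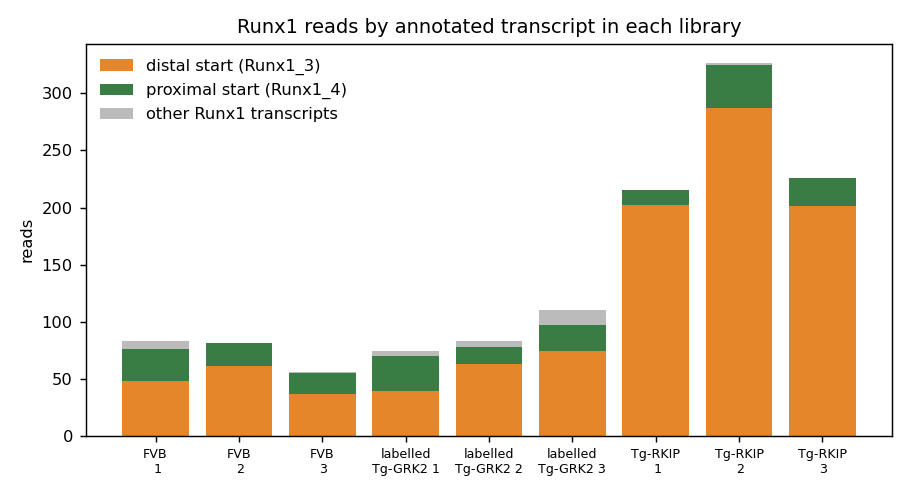
Reads of Runx1 in each library, stacked by annotated transcript, with the distal-start transcript at the bottom. The distal-start transcript has 37 to 74 reads in the 6 FVB and labelled Tg-GRK2 libraries and 201 to 287 reads in Tg-RKIP, and the proximal-start transcript has 13 to 38 reads in all 9.

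The other members are annotated on single loci as follows, all in build GRCm39 as deposited. Pdgfra lies at chr5:75312953-75358876, Tcf21 at chr10:22693180-22696073, Dpt at chr1:164624213-164651835, Gsn at chr2:35146392-35197904, Pi16 at chr17:29536654-29549567, Fap at chr2:62331287-62404419, Cthrc1 at chr15:38940327-38950516, Meox1 at chr11:101768336-101785200 and Cilp at chr9:65172462-65187887. Tcf21, Fap, Meox1 and Runx1 are on the minus strand. Dpt and Meox1 have 1 annotated transcript each, and for Pdgfra 96.2% ± 2.27 of the FVB reads and 96.6% ± 1.26 of the Tg-RKIP reads (SD, n = 3 each) fell on 1 transcript, Pdgfra_3, so that these 3 genes depend little on the division of reads.

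Other genes of the same biology were taken from lists and counted on TMM-normalized reads. Of 20 other genes linked to fibroblast activation, 18 were called higher in Tg-RKIP than in FVB, 0 lower and 2 not, and 17 were higher by at least 1 on the log2 scale. Their median log2 fold change was 2.00, beside 0.01 for all tested genes. The all-gene shares between Tg-RKIP and FVB were 36.8% called higher and 37.1% called lower. A rise with a log2 fold change of 1 or more was called for 10.2%. Sfrp2, a secreted modulator of Wnt signalling, rose from 1.64 ± 0.281 to 58.9 ± 0.138 TPM (SD, n = 3, log2 fold change 4.73), and Comp, cartilage oligomeric matrix protein, rose from 10.2 ± 0.409 to 293.7 ± 3.22 TPM (SD, n = 3, log2 fold change 4.28). Kif26b was not called, with a log2 fold change of -0.04 that turned to 0.33 with scaling to library size alone. In the libraries labelled Tg-GRK2, 6 of these 20 genes were called higher and 3 lower than in FVB, with a median of 0.09. Of all tested genes, 12.2% were called higher and 12.2% lower in that comparison.

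Of 18 other genes of resting fibroblasts, 10 were called higher, 6 lower and 2 not in Tg-RKIP against FVB, with a median log2 fold change of 0.26, where 36.8% of all tested genes were called higher and 37.1% lower. Pdgfrl (2.01) and Mfap5, a microfibril protein (1.90), had the largest log2 fold changes, and Wif1, a secreted Wnt inhibitor, had the smallest (-0.94), which was -0.20 and not called with its most abundant transcript alone (edgeR adjusted p = 0.224). In the labelled Tg-GRK2 libraries 12 of the 18 were called higher and 2 lower than in FVB, with a median of 0.20, beside 12.2% higher and 12.2% lower among all tested genes.

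**Figure D5:**
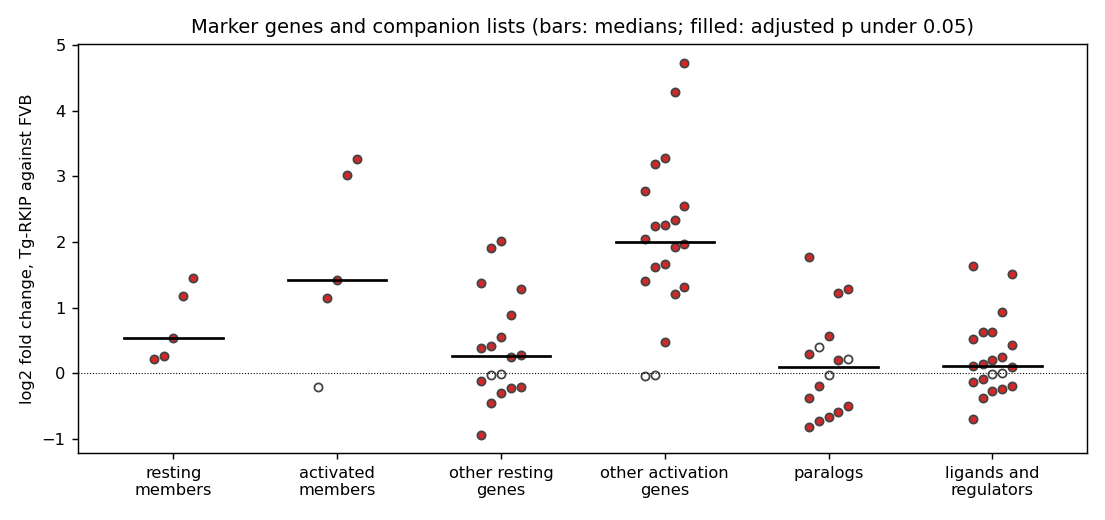
Log2 fold changes between Tg-RKIP and FVB of the members and of the genes on 4 companion lists, with bars at the medians and filled points for an adjusted p under 0.05. The other activation genes lie mostly above 1, with a median of 2.00, and the resting members all lie above 0. The other resting genes, paralogs and regulators scatter on both sides of 0.

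Paralogs of the members were read as well. Among all tested genes 36.8% were called higher in Tg-RKIP than in FVB and 37.1% lower. Of 16 paralogs tested, 6 were called higher, 7 lower and 3 not in Tg-RKIP, with a median log2 fold change of 0.09. With scaling to library size alone these values moved up by about as much as those of all genes, so several calls depended on the scale. Runx2 (1.28), Capg of the gelsolin family (1.22), Vil1 of the same family (1.77) and Pdgfrb, the beta receptor found on mural cells as well as fibroblasts (0.57), were called higher. Levels of Vil1 were low, at 0.177 TPM in FVB and 0.675 in Tg-RKIP, as were those of Runx2, at 0.444 and 1.41. Capg was at 12.5 and 38.4 TPM. Kit, of the receptor class of Pdgfra, was called higher by 0.30, a value that ran from 0.29 to 2.80 over the 11 alternatives that left out no single library. Pi15, a relative of Pi16, was called higher by 0.21, and this call was lost in 10 of 20 alternatives, among them DESeq2 (adjusted p = 0.115) and the test without FVB replicate 1 (0.11, edgeR adjusted p = 0.27). The Pi15 call was also lost without Tg-RKIP replicate 2 or 3, without Tg-GRK2 replicate 1 or 3 and without FVB replicate 2.

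Of the dipeptidyl peptidase relatives of Fap, Dpp8 (-0.72) and Dpp9 (-0.59) were called lower. Prep was called lower (-0.49), but not on log2(TPM + 0.1) (-0.07, limma adjusted p = 0.312). Dpp4 was called lower (-0.20), turned to 0.17 with scaling to library size alone, and was not called with DESeq2 (adjusted p = 0.0632) or without Tg-RKIP replicate 1, Tg-RKIP replicate 3 or FVB replicate 3. Msc, a relative of Tcf21, was called lower (-0.82), but not on log2(TPM + 0.1) (-0.36, limma adjusted p = 0.107). Meox2, the relative of Meox1, was called lower (-0.37), while library-size scaling gave 0.0036. Svil of the gelsolin family was called lower (-0.67) and turned to 0.39 on log2(TPM + 0.1). Cilp2, the relative of Cilp and also on the activation list, was not called (-0.03, edgeR adjusted p = 0.799) and turned to 0.35 with scaling to library size alone. Scin of the gelsolin family was not called (0.22), but was called with library-size scaling (0.59, edgeR adjusted p = 0.000283), on both TPM scales and without Tg-RKIP replicate 1 (0.31, edgeR adjusted p = 0.0448). Runx3 was not called (0.39, edgeR adjusted p = 0.0864), but was called with library-size scaling (0.77, edgeR adjusted p = 0.00162) and when only Tg-RKIP and FVB were fitted (0.40, edgeR adjusted p = 0.0433).

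Ligands, receptors and regulators that act on these genes were tested as a list of 21, of which 12 were called higher, 7 lower and 2 not, with a median log2 fold change of 0.12. Of all tested genes, 36.8% were called higher in Tg-RKIP than in FVB and 37.1% lower. Tgfb3 and Tgfb2, ligands of the transforming growth factor beta receptors, had the largest log2 fold changes of this list, 1.63 and 1.51. Tgfb3 was at 9.13 ± 0.513 TPM in FVB and at 37.8 ± 1.25 TPM in Tg-RKIP, and Tgfb2 at 6.99 ± 0.436 and 26.0 ± 0.459 TPM (SD, n = 3 each). Tead1, a DNA-binding partner of Yap1, had the smallest at -0.69.

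Markers of 11 other cell types moved between the same groups, and their part in the results was not tested. The counts called between Tg-RKIP and FVB stand beside 36.8% of all tested genes called higher and 37.1% called lower. The summed TPM of 8 macrophage markers was 833 to 837 in Tg-RKIP, 363 to 377 in the labelled Tg-GRK2 libraries and 319.5 to 332 in FVB, and 8 of 8 were called higher in Tg-RKIP than in FVB. The sums for 7 epicardium and mesothelium markers were 83.3 to 85.3, 37.7 to 42.3 and 30.0 to 32.7, with 7 of 7 called higher. Adipocyte markers summed to 1036 to 1062, 534 to 568 and 611 to 642 TPM (9 of 9 higher), and lymphocyte and blood markers to 2605 to 2784, 1297 to 1347 and 580.0 to 598 TPM (8 of 8 higher). Endothelial markers summed to 646 to 671, 364 to 373 and 359 to 361 TPM (5 higher, 3 lower), mural markers to 359.8 to 365, 361 to 368 and 346 to 359 TPM (4 higher, 4 lower), and cardiomyocyte markers to 60831 to 62068, 62263 to 64035 and 64731 to 65007 TPM (0 higher, 9 of 10 lower). Schwann cell markers summed to 22.02 to 23.2, 5.97 to 6.38 and 4.68 to 5.11 TPM (3 of 4 higher), and tendon and valve markers to 16.0 to 19.8, 7.21 to 7.795 and 6.28 to 6.71 TPM (2 of 3 higher).

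Cilp and the activation gene Comp are also cartilage genes, and cartilage markers were counted beside them. Their summed TPM was 80.8 to 82.8 in Tg-RKIP, 7.86 to 8.83 in the labelled Tg-GRK2 libraries and 9.34 to 9.83 in FVB. In Tg-RKIP against FVB 7 of 8 tested genes, of 12 listed, were called higher, beside 36.8% of all tested genes. Col2a1, the collagen that defines cartilage, had 2563 to 3291 reads in Tg-RKIP and 0 to 3 reads in the other 6 libraries. Matn3 was at 0 in the labelled Tg-GRK2 libraries and Snorc at 0 in FVB. The part of cartilage-like tissue in the levels of Cilp was not tested.

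Airway epithelium markers were present in both transgenic groups, with a summed TPM of 95.9 to 102 in Tg-RKIP, 203 to 212 in the labelled Tg-GRK2 libraries and 0.411 to 0.873 in FVB. Scgb1a1, Scgb3a2, Bpifa1, Sftpc, Reg3g and Krt5 were at 0 in every FVB library. Of the airway markers 6 of 6 tested were called higher in Tg-RKIP than in FVB, beside 36.8% of all tested genes. In Tg-RKIP against the labelled Tg-GRK2 libraries 6 of 6 airway markers were called lower, beside 36.6% of all tested genes. The part of airway tissue in the levels of the fibroblast markers was not tested.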

How the data were processed

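Hearts of male mice at 8 months were ground in liquid nitrogen, and RNA was sequenced as single reads of 50 bases. The authors deposited raw read counts per transcript for 9 libraries, without normalization, and TPM values per transcript, scaled to length and to an equal library total, computed from the same reads. The build was GRCm39 per the submitters' processing notes. The aligner, the counter, the strand setting and the treatment of shared reads are not given in the sources used here. Counts and TPM were summed by gene name, giving 41710 names from 127558 transcripts. Columns were mapped to libraries by title.

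Gene counts were tested with edgeR 4.0.16 in R 4.3.3 by the quasi-likelihood test, with TMM normalization, filterByExpr, a mean per group and all 9 libraries in 1 fit, with Benjamini-Hochberg adjustment across the 15504 genes tested. TPM of single members were compared by exact two-sided permutation tests, 3 libraries against 3. Alternatives used DESeq2 1.42.0, limma 3.58.1, other scalings and filters, a replicate block, the most abundant transcript of each gene and each library left out in turn. The edgeR test of single transcripts was added after the data were seen. The edgeR test was also run on simulated counts with known changes. Promoter windows came from RefSeq, build GRCm38.p6, which differs from the build of the deposited coordinates.

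The 10 members and all gene lists were chosen with earlier results of these data known. All members were named. From each companion list the 2 genes with the largest and the 1 gene with the smallest log2 fold change between Tg-RKIP and FVB were named, provided that the group with more reads averaged 100 or more, and of the paralogs all tested genes were named. Depth was 25458108 to 33447654 reads per library, so Cthrc1, Runx1, Fap and Cilp, with the fewest reads of the members, had the widest errors.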

Additional observations from a re-analysis of the deposited data

How the results depend on the processing

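Of 30 results for single members, 14 kept their direction and side of the threshold under all 20 alternatives, as did 564 of 600 values. The count of members called higher between Tg-RKIP and FVB was 9 in the main test, where 5709 of all 15504 tested genes were called higher. It was 8 with the most abundant transcript alone (4183 of 15177 genes) and 6 at a fold change of at least 1.5 (1975 of 15504). With limma it was 10 on log2(TPM + 0.1) and on log2(TPM + 1), scales on which 8932 and 8956 of 13478 genes were called higher. Members called lower in that comparison numbered 0 to 1 with a library left out, the 1 being Fap. With a fold change of at least 1.5 required, 0 members were called higher in the labelled Tg-GRK2 libraries than in FVB, beside 82 of all 15504 tested genes. Members lower in Tg-RKIP than in the labelled Tg-GRK2 libraries numbered 1 in the main test and 0 with scaling to library size alone, with the most abundant transcript, with limma on log2(TPM + 0.1) or log2(TPM + 1), and at a fold change of at least 1.5.

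Where a value was called in either test, directions turned as follows, and beyond the change of scale the cause was not tested. Between Tg-RKIP and FVB, scaling to library size alone gave log2 fold changes of 0.33 for Kif26b, 0.17 for Dpp4, 0.0036 for Meox2 and 0.35 for Cilp2. On log2(TPM + 0.1) they were 0.50 for Fap, 0.33 for Kif26b, 0.32 for Dpp4, 0.0413 for Meox2, 0.37 for Cilp2 and 0.39 for Svil. On log2(TPM + 1) they were 0.40 for Fap, 0.23 for Kif26b, 0.26 for Dpp4, 0.0388 for Meox2, 0.27 for Cilp2 and 0.39 for Svil. Between Tg-RKIP and the labelled Tg-GRK2 libraries, Pdgfra was at 0.34 with library size alone, 0.34 on log2(TPM + 0.1) and 0.32 on log2(TPM + 1), Fap at 0.18 and 0.15 on the TPM scales, and Gsn at -0.0712 with the most abundant transcript alone. Among member values called in neither test, Fap turned to 0.16 with library size alone between Tg-RKIP and FVB. Between the labelled Tg-GRK2 libraries and FVB, Fap turned to -0.13 with the most abundant transcript, Tcf21 to 0.0017 and 0.0015 on the TPM scales, and Meox1 to 0.011 and 0.010 there and to 0.0095 without Tg-GRK2 replicate 3. Dpt turned to -0.0012 between the transgenic groups with the most abundant transcript.

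At a fold change of at least 1.5, all-gene calls went from 11460 to 3665 between Tg-RKIP and FVB, from 3793 to 155 between the labelled Tg-GRK2 libraries and FVB, and from 11551 to 3867 between the transgenic groups. With the most abundant transcript alone, calls between the labelled Tg-GRK2 libraries and FVB went from 3793 to 1665. Equal replicate numbers did not pair the libraries, since 2 of 9 correlated best with their own number. A replicate block left 9, 5 and 7 members called higher in the 3 comparisons and gave 11401, 3660 and 11491 all-gene calls.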
